A study of Xenopus laevis with 6 samples.

Results

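Genes of fatty acid and sterol metabolism were followed in 3 gut organ buds (pancreas, liver and stomach) of the frog Xenopus laevis. The genes were chosen by name, with earlier results of these data known. Every gene whose symbol on the array platform begins with one of a fixed set of enzyme, lipid droplet or lipoprotein names was taken, for example acsl, acad, elovl, hmgc, agpat or plin, and its brightest probe set stood for it. This gave 45 genes of 7531 genes with 1 symbol. Xenopus laevis is an allotetraploid frog, and a symbol ending in .L or .S is the copy on the long or the short chromosome of a pair. Of the 45, 25 were .L copies and 20 .S copies, from 39 gene names, and 6 names had both copies. The pancreas, liver and stomach groups held 2 arrays each, of total RNA from organ buds of stage 42 tadpoles on an Affymetrix frog array. The labels give mixed gender and no treatment or genetic change, and replicates 1 and 2 stand for separate isolations of all 3 organs. The buds hold mesoderm as well as endoderm, so each array is a mixture of cell types. In such bulk RNA, fewer cells of a type and less RNA per cell cannot be told apart.

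Fatty acids are activated to acyl-CoA by acyl-CoA synthetases before any use. For energy they enter mitochondria through the carnitine palmitoyltransferases and are shortened by beta-oxidation, while peroxisomes shorten very long and branched chains. For storage and membranes they are made from citrate-derived acetyl-CoA, elongated and desaturated, and joined to glycerol. Sterols are built from acetyl-CoA through mevalonate and isoprenoids. The liver carries out all of these and exports lipid to the blood, and the stomach lining and wall use lipid for membranes and energy. The exocrine pancreas secretes digestive enzymes, including some that digest dietary lipid.

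The measured organs carried the defining genes of their labels. Of 12 measured pancreas marker genes, 10 were higher in pancreas than in liver and 11 higher than in stomach. Of 12 liver markers, 10 were higher in liver than in pancreas and 10 higher than in stomach. Of 5 stomach markers, 3 were higher in stomach than in pancreas and 4 higher than in liver. Other cell types differed between the organs as well. The summed intensity of 5 smooth muscle genes was 6987 to 10396 in stomach, 734 to 1193 in pancreas and 513 to 600.4 in liver. That of 6 erythrocyte genes was 32077 to 33841 in liver, 9559 to 10219 in pancreas and 6601 to 7010.1 in stomach, and that of 7 leukocyte genes was 1391 to 2014 in liver, 377 to 397 in pancreas and 297 to 422 in stomach. The part of these cells in the differences given below was not tested. The pancreas arrays also differed from each other: the 12 liver markers summed to 3817 in replicate 1 and 1126 in replicate 2, and the 5 stomach markers to 52.9 in replicate 1 and 492.8 in replicate 2. Intensities are linear, with a median of 100 on every array. They are not read as amounts of RNA between genes, since each probe set has its own response.

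The lipid metabolism genes that differed among the organs had their highest mean in liver or in stomach. The limma moderated F test, at an adjusted p under 0.05, found 13 of the 45 genes (28.9%) to differ, against 14.8% of all 7531 genes. Of these 13, 6 had their highest mean in liver and 7 in stomach, and 6 had their lowest in pancreas, 5 in liver and 2 in stomach. The same was not counted for all genes that differed. Among genes called or not, 8 of the 45 had their highest mean in pancreas, against 2972 of the 7531. The lowest mean was in pancreas for 21 of the 45, against 2069 of the 7531. The 45 genes were brighter, with a median of their mean intensities of 375, against 162 for all genes. The shares of all genes given here and below were not matched for intensity. Of the 13 genes that differed, those highest in liver were gpam.S and dgat2.L (fat synthesis), lcat.L (sterol esters), acox2.L (peroxisomal oxidation), ech1.L and elovl1.S. Those highest in stomach were the elongase copies elovl7.L and elovl7.S, the citrate-cleaving acly.S, the carnitine transferase gene cpt1b.L, the thiolase gene acaa2.L, agpat4.S and plin3.L. Of these, agpat4.S and plin3.L belong to the same glycerolipid, sterol ester and lipid droplet group as gpam.S, dgat2.L and lcat.L. Fits with 1 array left out gave lower counts. Such fits have fewer arrays, and their share over all genes was not counted.

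Pair by pair, 1 gene was higher in pancreas than in liver (2.22%, against 3.27% of all genes) and 6 were lower (13.3%, against 3.96%). No gene was higher in pancreas than in stomach by limma, against 4.41% of all genes. At an unadjusted p under 0.05 there were 2 of the 45, against 1238 of all 7531 genes. With the replicate number as a block there was 1, agpat3.L (adjusted p = 0.0491). Lower in pancreas than in stomach were 6 genes (13.3%, against 4.9%). Between liver and stomach, 5 were higher in liver (11.1%, against 5.84%) and 7 lower (15.6%, against 5.36%). The median log2 difference of the 45 genes was -0.17 for pancreas minus liver, -0.41 for pancreas minus stomach and 0.00 for liver minus stomach, where that of all genes was 0.07, 0.12 and 0.04. In 25 of the 45 genes (55.6%) both pancreas arrays lay below both stomach arrays, as in 25.1% of all genes, and in 8 (17.8%) both lay above, as in 36.9% of all genes. In all, 25 differences between pairs of organs passed, spread over 14 genes. When 1 pancreas array was left out, fewer of the 45 genes passed as lower in pancreas than in stomach or liver. Those fits hold 1 pancreas array, and all genes were not counted in them. The comparisons of 1 organ with the other organs share its arrays.

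**Figure D1:**
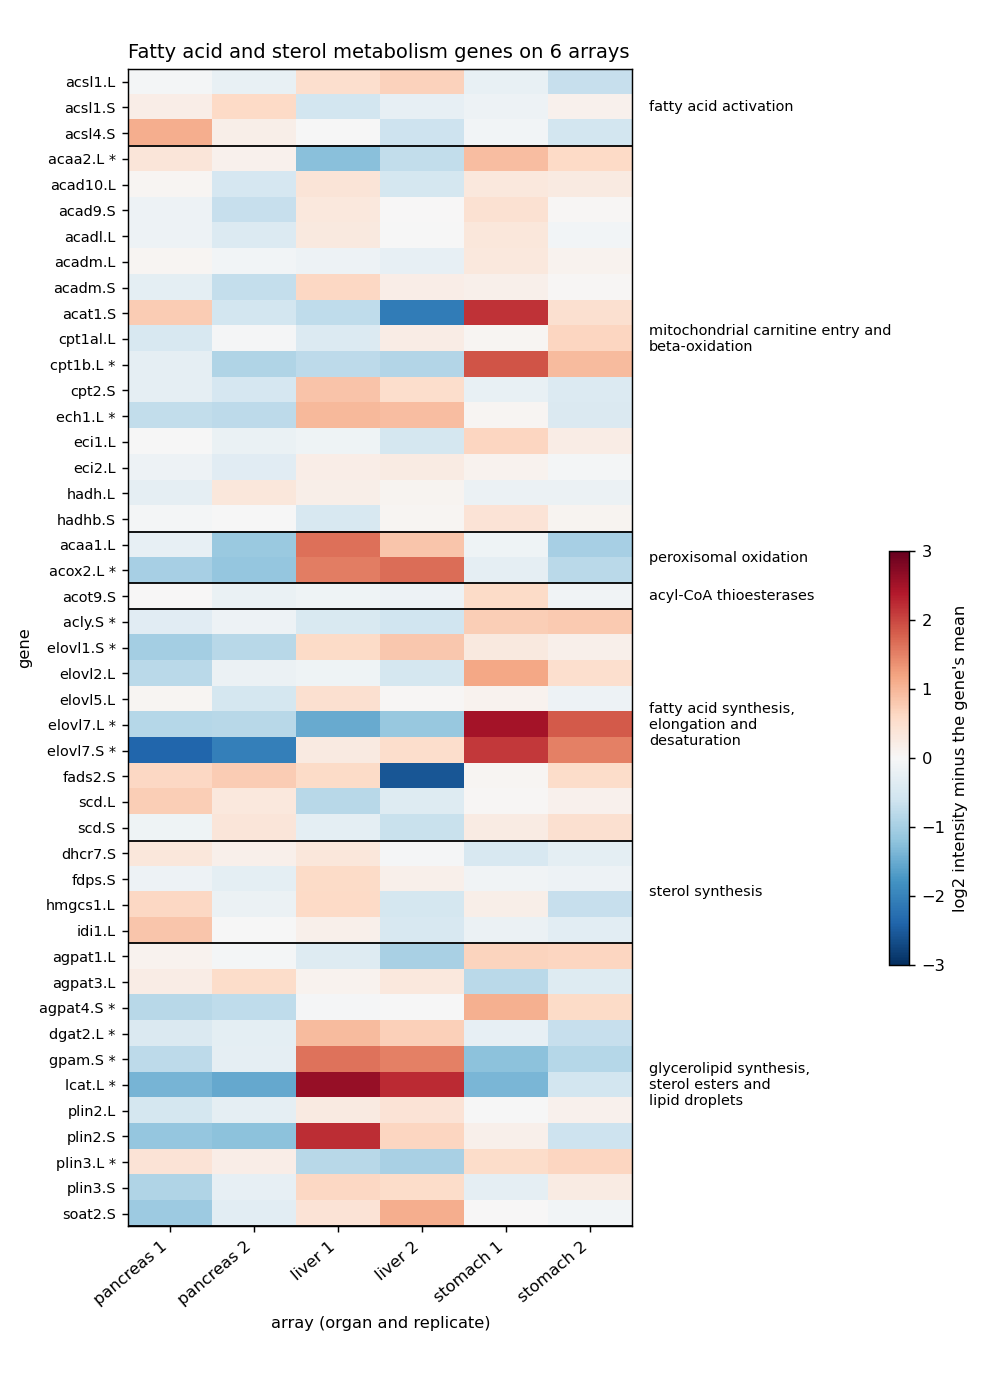
Log2 intensity of the 45 genes on the 6 arrays, each minus the gene's own mean over the arrays, grouped by role (rows are genes, columns are arrays, red above and blue below the mean). An asterisk marks the 13 genes that differed among the organs. Liver arrays are red for lcat.L, gpam.S and acox2.L, stomach arrays for both elovl7 copies and cpt1b.L, and the sterol synthesis rows are pale.

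Mitochondrial oxidation held 15 genes, of which 3 differed among the organs (20.0%, against 14.8% of all genes). Most were lower in pancreas than in stomach in these arrays without passing singly: 14 of the 15 had a lower mean there, both pancreas arrays lay below both stomach arrays in 12 (80.0%, against 25.1% of all genes), and 1 passed. The thiolase gene acaa2.L, for the last step of the beta-oxidation cycle, was at an intensity of 3919 and 3147 in stomach, 2675 and 2266 in pancreas and 874 and 1238 in liver (replicates 1 and 2). The organs did not overlap, and the liver arrays were the lowest. It was 3.38-fold lower in liver than in stomach (log2 difference -1.76, SE 0.267, adjusted p = 0.0217), while pancreas over liver, 2.37-fold, did not pass (adjusted p = 0.0653). Its F test had an adjusted p of 0.0316, and 0.0542 with the replicate number as a block. The dienoyl-CoA isomerase gene ech1.L, which helps to degrade unsaturated fatty acids, ran the other way, at 897 and 875 in liver, 479 and 339.5 in stomach and 273 and 264 in pancreas. Liver exceeded pancreas 3.30-fold (adjusted p = 0.0228) and stomach 2.20-fold (adjusted p = 0.0479, and 0.0520 with the replicate block). Thus the 2 enzyme genes had opposite orders of liver and stomach.

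Carnitine palmitoyltransferases, the entry step into mitochondria, were measured as 3 genes. The gene cpt1b.L, whose mammalian counterpart encodes the muscle form of carnitine palmitoyltransferase 1, was at 1447 and 749 in stomach, 320.1 and 208 in pancreas and 226 and 212 in liver. Both stomach arrays were above all others. Stomach exceeded pancreas 4.03-fold (log2 difference for pancreas minus stomach -2.01, SE 0.397, adjusted p = 0.0475) and liver 4.76-fold (adjusted p = 0.0317). The part of muscle cells in the cpt1b.L difference was not tested. All 5 smooth muscle genes were lower in pancreas than in stomach, and 4 lower in liver than in stomach. The 6 skeletal muscle genes summed to 1664 to 2304 in stomach, 1033 to 1143 in liver and 481 to 497 in pancreas, and did not move together. Of them, ckm.L was highest in stomach (2070.2 and 1454, against 679 and 734 in liver and 238 and 317 in pancreas), tnnc2.L was 4.55-fold lower in stomach than in liver (adjusted p = 0.0338), and the 4 others did not pass the F test. The other outer-membrane form measured, cpt1al.L, was at 837 and 1253 in stomach, 602 and 942 in liver and 571 and 787 in pancreas, and did not pass in any pair (lowest adjusted p = 0.344, and 0.0986 with the block). Its other probe set was at 556 and 647 in stomach, 288 and 412 in pancreas and 327 and 332 in liver, with both stomach arrays above the rest, and did not pass (adjusted p = 0.124 against pancreas and 0.106 against liver). The difference between cpt1b.L and cpt1al.L was not tested. The inner-membrane enzyme gene cpt2.S was at 346 and 274 in liver, 158 and 134 in pancreas and 164 and 144 in stomach. Its 2 liver arrays were the highest, 2.12-fold above pancreas and 2.01-fold above stomach, which did not pass without the block (adjusted p = 0.0618 and 0.0595) and passed with it (adjusted p = 0.0438 and 0.0407).

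For acat1.S, a mitochondrial acetoacetyl-CoA thiolase of ketone body and isoleucine metabolism, the replicates differed more than for any other of the mitochondrial oxidation genes. It was at 1106 and 347 in stomach, 422 and 169 in pancreas and 145 and 58.1 in liver. Within each replicate the order was stomach, pancreas, liver, but replicate 2 of stomach lay below replicate 1 of pancreas. The 6.75-fold excess of stomach over liver had an SE of 0.802 on the log2 scale and did not pass (adjusted p = 0.110). With the replicate number as a block the SE was 0.183 and all 3 pairs passed (adjusted p = 0.0336 for pancreas and liver, 0.0453 for pancreas and stomach and 0.0149 for liver and stomach).

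The remaining mitochondrial genes did not pass in any pair of organs. The trifunctional protein subunit gene hadhb.S was at 3993 and 3218 in stomach, 2885 and 2987 in pancreas and 2177 and 3170.0 in liver. The medium-chain dehydrogenase gene acadm.L was at 1523 and 1309, 1264 and 1150.0, and 1104 and 1028 in the same order. Their largest folds between organs were 1.36 and 1.33. The long-chain dehydrogenase gene acadl.L, the acyl-CoA dehydrogenase genes acad9.S and acad10.L, the enoyl-CoA isomerase genes eci1.L and eci2.L, the hydroxyacyl-CoA dehydrogenase gene hadh.L and the .S copy of acadm were the others. Their largest difference was that of acadm.S, 1.86-fold lower in pancreas than in liver (adjusted p = 0.118).

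Both peroxisomal genes had their highest mean in liver, as did 2376 of all 7531 genes. Of the 2, 1 passed the F test (50.0%, against 14.8% of all genes). With so few genes, these counts cannot be told apart from the shares of all genes. The branched-chain acyl-CoA oxidase gene acox2.L, an enzyme that in mammals also shortens bile acid precursors, was at 655 and 723 in liver, 185 and 128 in stomach and 113 and 101 in pancreas. The liver arrays were clear of all others. Liver exceeded pancreas 6.45-fold (pancreas minus liver -2.69 in log2, SE 0.252, adjusted p = 0.0104) and stomach 4.47-fold (adjusted p = 0.0122). The peroxisomal thiolase gene acaa1.L, which completes each peroxisomal cycle, was at 1491 and 854 in liver, 439.7 and 241 in stomach and 401 and 219 in pancreas. Its 3.80-fold and 3.47-fold liver excess did not pass without the block (adjusted p = 0.0922 and 0.0965) and passed with it (adjusted p = 0.0201 and 0.0186). Replicate 1 was 1.75-fold to 1.83-fold above replicate 2 in every organ.

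None of the 3 synthetase genes that activate fatty acids passed the F test, where 14.8% of all genes did. At an unadjusted p under 0.05 in that test there was 1 of the 3, against 2606 of all 7531 genes. The long-chain synthetase gene acsl1.L was at 1402 and 1581 in liver, 940.4 and 839 in pancreas and 846 and 603 in stomach. Its liver values were the highest, 2.08-fold above stomach (adjusted p = 0.0634). The gene acsl4.S, whose mammalian enzyme prefers arachidonic acid, was at 824 and 439 in pancreas, 388 and 255 in liver and 367 and 267 in stomach. Both pancreas arrays were above the other organs, by 1.91-fold and 1.92-fold, without passing (adjusted p = 0.246 and 0.230, and 0.0745 and 0.0675 with the block). The thioesterase gene acot9.S, whose product releases fatty acids from CoA in mitochondria, was at 571 and 352 in stomach, 384 and 331 in pancreas and 351 and 343 in liver and did not pass.

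Among 9 genes of fatty acid synthesis, elongation and desaturation, 4 differed among the organs (44.4%, against 14.8% of all genes). All 4 were lower in pancreas than in stomach (44.4%, against 4.9% of all genes). They included both the .L and the .S copy of elovl7. The ATP-citrate lyase gene acly.S, which supplies cytosolic acetyl-CoA for fatty acid and sterol synthesis, was at 899 and 929 in stomach, 423 and 485 in pancreas and 390.4 and 355 in liver. The stomach arrays were apart from the others and close to each other. Stomach exceeded liver 2.46-fold (log2 difference for liver minus stomach -1.30, SE 0.193, adjusted p = 0.0206) and pancreas 2.02-fold (adjusted p = 0.0448, and 0.0532 with the block). The elongase gene elovl1.S, for saturated and monounsaturated very long chains, was at 3664 and 4322 in liver, 2984 and 2735 in stomach and 1209 and 1379.9 in pancreas. Both pancreas arrays were the lowest: it was 3.08-fold lower in pancreas than in liver (adjusted p = 0.0185) and 2.21-fold lower than in stomach (adjusted p = 0.0387), while both liver arrays lay above both stomach arrays without passing (1.39-fold, adjusted p = 0.240).

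The elongase gene elovl7, for long saturated chains, had its highest level in stomach in both copies. The copy elovl7.L was at 1803 and 1161 in stomach, 178 and 182 in pancreas and 112 and 146 in liver. Stomach exceeded pancreas 8.05-fold (adjusted p = 0.0116) and liver 11.3-fold (log2 difference for liver minus stomach -3.50, SE 0.290, adjusted p = 0.00650). The copy elovl7.S was at 644 and 424 in stomach, 178 and 214 in liver and 28.5 and 35.7 in pancreas. Stomach exceeded pancreas 16.4-fold (log2 difference for pancreas minus stomach -4.03, SE 0.290, adjusted p = 0.00856; 11.2-fold with 16 added to each intensity) and liver exceeded pancreas 6.12-fold (adjusted p = 0.0137). Stomach over liver, 2.68-fold, had an adjusted p of 0.0458, and 0.0731 with the block. For elovl7.L, pancreas and liver did not differ by the test (1.40-fold, adjusted p = 0.373).

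None of the desaturase and polyunsaturated elongase genes passed the F test, where 14.8% of all genes did. With so few genes, a count of 0 cannot be told apart from this share. The delta-6 desaturase gene fads2.S was at 35.6 and 39.2 in pancreas, 34.3 and 3.87 in liver and 23.9 and 33.9 in stomach, so that 1 liver array set its liver mean. The stearoyl-CoA desaturase gene scd.L was at 123 and 92.0 in pancreas, 76.3 and 81.4 in stomach and 41.7 and 56.7 in liver. Its 2.19-fold excess of pancreas over liver did not pass (adjusted p = 0.0756). Its copy scd.S ran from 29.0 in liver to 64.3 in stomach. Its log2 difference for liver minus stomach was -0.85 (limma adjusted p = 0.137). Another probe set of scd.S had the opposite sign, at 0.47 (adjusted p = 0.526). The elongases of polyunsaturated chains, elovl2.L and elovl5.L, did not pass either. The first was at 132 and 83.9 in stomach and at or under 53.9 on the 4 other arrays (2.52-fold above pancreas, adjusted p = 0.0929), and elovl5.L lay between 112 and 228 on all arrays.

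**Figure D2:**
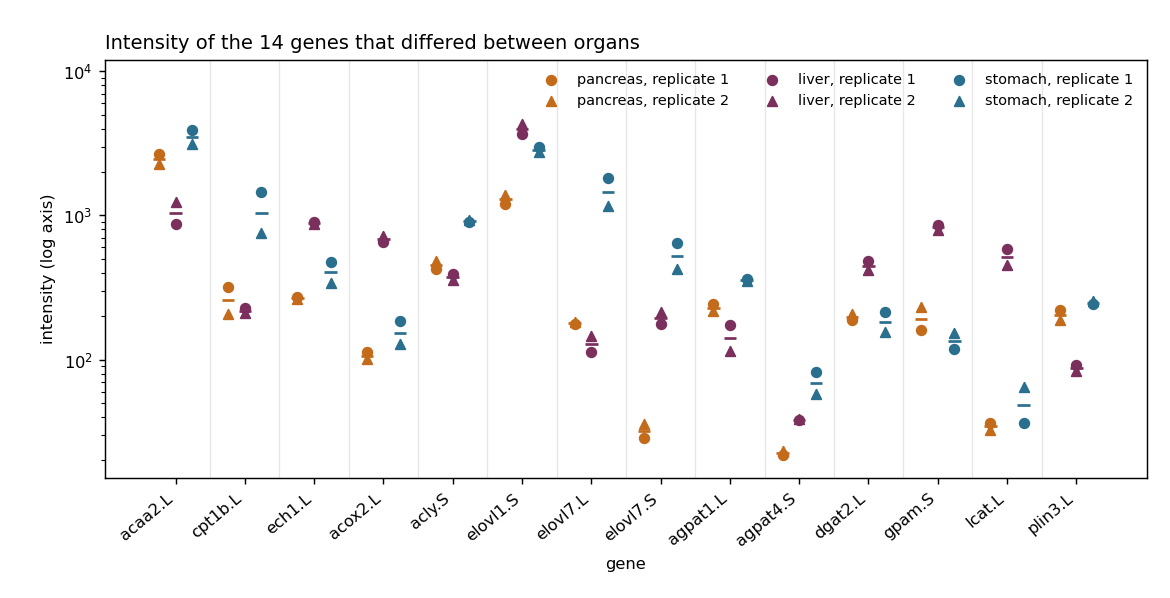
Intensity, on a log axis, of the 14 genes with a difference between organs that passed, by organ (colour) and replicate (circle for 1, triangle for 2), with a bar at the geometric mean of each organ. Stomach lies above the other organs for acaa2.L, cpt1b.L, acly.S, both elovl7 copies, agpat1.L, agpat4.S and plin3.L, and liver does for ech1.L, acox2.L, elovl1.S, dgat2.L, gpam.S and lcat.L.

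Sterol synthesis was represented by 4 genes, and none differed among the organs by limma, where 14.8% of all genes did. None had an unadjusted p under 0.05 in the F test either, against 2606 of all 7531 genes. With so few genes, a count of 0 cannot be told apart from these shares. In order of the pathway, the HMG-CoA synthase gene hmgcs1.L was at 282 and 161 in pancreas, 276 and 126 in liver and 205 and 113 in stomach. The isopentenyl diphosphate isomerase gene idi1.L was dim, at 49.0 and 27.1, 30.4 and 19.7, and 24.2 and 22.0 in the same order. The farnesyl diphosphate synthase gene fdps.S was at 221 and 202 in pancreas, 367 and 274 in liver and 229 and 221 in stomach. The gene dhcr7.S, for the last reduction to cholesterol, was at 897 and 788 in pancreas, 899 and 688 in liver and 511 and 576 in stomach. The largest fold among the 4 was 1.58, that of idi1.L between pancreas and stomach (adjusted p = 0.341). In single pairs, fdps.S had a log2 difference of -0.58 for pancreas minus liver (adjusted p = 0.200) and dhcr7.S was 1.55-fold lower in stomach than in pancreas (adjusted p = 0.167), and these 2 had an unadjusted p under 0.05. The smallest difference that passed among the 45 genes was 2.02-fold.

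Glycerolipid synthesis, sterol esters and lipid droplets held 11 genes, of which 5 differed among the organs (45.5%, against 14.8% of all genes), and the liver carried the largest excess. The lecithin-cholesterol acyltransferase gene lcat.L, whose product esterifies cholesterol on lipoproteins in plasma, was at 583 and 449.8 in liver, 36.4 and 32.6 in pancreas and 36.6 and 64.5 in stomach. Liver exceeded pancreas 14.9-fold (pancreas minus liver -3.89 in log2, SE 0.335, adjusted p = 0.00921) and stomach 10.5-fold (adjusted p = 0.00824). With 16 added to each intensity the folds were 10.5 and 8.12. Glycerol-3-phosphate acyltransferase, the entry enzyme of fat synthesis, was measured as gpam.S, at 858 and 792 in liver, 159.5 and 231 in pancreas and 119 and 152 in stomach. Liver exceeded stomach 6.14-fold (log2 difference 2.62, SE 0.270, adjusted p = 0.00945) and pancreas 4.30-fold (adjusted p = 0.0195). The enzyme of the final step to triglyceride, dgat2.L, was at 483 and 415 in liver, 187 and 207 in pancreas and 212 and 155 in stomach. Liver exceeded stomach 2.47-fold (adjusted p = 0.0358), and its 2.28-fold excess over pancreas did not pass (adjusted p = 0.0575). The F test of dgat2.L had an adjusted p of 0.0433, and 0.0526 with the block. For both acyltransferase genes the liver arrays lay above all others.

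The acyltransferases of the middle step, which make phosphatidic acid, were measured as 3 genes. The gene agpat1.L was at 362 and 352 in stomach, 243 and 217 in pancreas and 173 and 115 in liver, 2.53-fold lower in liver than in stomach (adjusted p = 0.0406). Neither of its 2 other probe sets passed in any pair: their log2 differences for liver minus stomach were -1.37 (adjusted p = 0.0552) and 0.41 (adjusted p = 0.495). The family member agpat4.S was dim, at 82.2 and 58.0 in stomach, 38.1 and 38.7 in liver and 21.9 and 23.2 in pancreas, and 3.07-fold lower in pancreas than in stomach (adjusted p = 0.0267; 2.21-fold with 16 added). The gene agpat3.L was at 567 and 714 in pancreas, 520.1 and 600.0 in liver and 277 and 371 in stomach. Stomach was its lowest organ, 1.99-fold below pancreas (adjusted p = 0.0827, and 0.0491 with the block).

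Lipid droplet coat genes and the sterol acyltransferase were the last of the group. The perilipin gene plin3.L was at 242 and 256 in stomach, 219 and 188 in pancreas and 91.7 and 83.4 in liver. It was 2.84-fold lower in liver than in stomach (log2 difference -1.51, SE 0.196, adjusted p = 0.0157) and 2.32-fold lower than in pancreas (adjusted p = 0.0335), the only gene of the 45 that passed, without the block, as higher in pancreas than in liver. Perilipin 2 coats droplets in many cell types, and its copy plin2.S was at 449 and 152 in liver, 107 and 62.3 in stomach and 43.2 and 41.0 in pancreas. The liver replicates differed 2.96-fold. The 6.21-fold liver excess over pancreas did not pass without the block (adjusted p = 0.0671) and passed with it (adjusted p = 0.0493). The copy plin2.L lay between 44.1 and 84.8 on all arrays and did not pass. The gene soat2.S, which makes cholesterol esters for lipoproteins, was at 75.5 and 120.0 in liver, 56.7 and 53.6 in stomach and 26.7 and 45.2 in pancreas, a 2.74-fold difference between liver and pancreas that did not pass (adjusted p = 0.0888).

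To test whether the .L and .S copies of a gene had the same organ pattern, the log2 ratio of the copies on each array was fitted by limma for all 1017 genes with both copies measured, a test chosen after the values had been seen. Of the 6 lipid genes with both copies, 2 differed between copies in their organ pattern (33.3%, against 6.1% of the 1017). The count was 4 with an intensity trend in eBayes, 4 of 4 pairs tested without dim probe sets and 3 with 16 added, with acsl1 or acsl1 and acadm passing as well. The share of all genes with both copies was not counted in these fits, so their counts cannot be set against the 6.1%. For plin3, the liver was the lowest organ of the .L copy. The .S copy had its highest mean there, at 152 and 144 in liver, 82.1 and 117 in stomach and 52.7 and 83.8 in pancreas, but passed in no pair (adjusted p = 0.335 for liver and stomach, 0.108 for pancreas and liver). The copies' liver minus stomach differences differed by -2.10 on the log2 scale (.L minus .S, SE 0.367, adjusted p = 0.0443, against 5.11% of genes passing), and their pancreas minus liver differences by 2.37 (SE 0.367, adjusted p = 0.0599). For elovl7, the pancreas minus liver differences of the copies differed by 3.10 (SE 0.222, adjusted p = 0.0248, against 1.38% of genes passing) and the liver minus stomach differences by -2.08 (SE 0.222, adjusted p = 0.0239). The 4 other genes did not pass the F test of the copies, with adjusted p of 0.102 for acsl1, 0.107 for acadm, 0.250 for plin2 and 0.550 for scd. Among them acsl1.S was at 373 and 462 in liver, 489.6 and 600.4 in stomach and 627 and 828 in pancreas, with its lowest mean where acsl1.L had its highest, and neither copy passed in any pair. Leaving out any 1 array ended the calls of both genes, with F test adjusted p of 0.0626 to 0.0930 for elovl7 and 0.0904 to 0.146 for plin3. Probe sets of 1 copy can also bind RNA of the other, and how far they did was not tested.

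**Figure D3:**
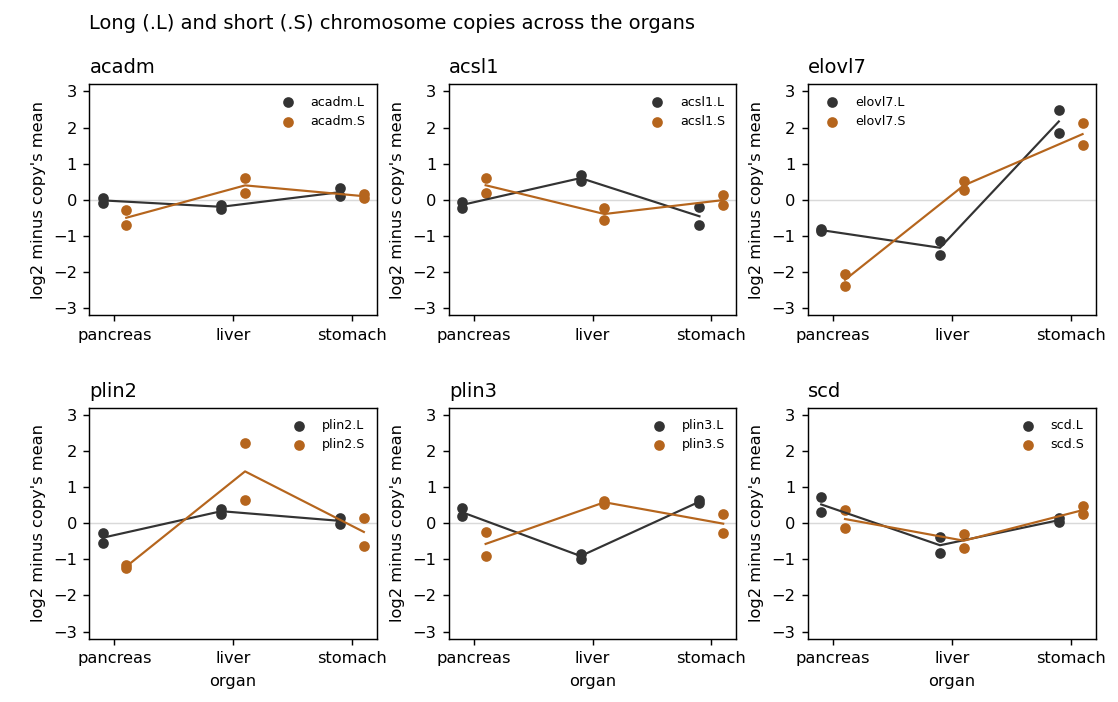
Log2 intensity of each copy minus that copy's mean over the 6 arrays, by organ, for the 6 genes with both copies measured (points are arrays, lines join organ means, dark for .L and brown for .S). Since each copy is set to its own mean, the lines of copies with unlike patterns must cross, and a crossing alone shows nothing more. For plin3 the liver mean is lowest for the .L copy and highest for the .S copy, and for acsl1 the reverse. For elovl7 the pancreas values lie lowest for the .S copy and close to the liver values for the .L copy.

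Other genes of the same pathways, from lists beside the 45, gave the setting. Of 9 measured regulators and other genes of sterol synthesis and transport, 3 were higher in liver than in pancreas (33.3%, against 3.96% of all genes) and none was lower. They were both copies of npc2 and cyp51a1.L. The lanosterol demethylase gene cyp51a1.L was at 225 and 89.3 in liver, 92.2 and 52.6 in stomach and 19.5 and 12.8 in pancreas (8.97-fold for liver over pancreas, adjusted p = 0.0406; 4.98-fold after adding 16 to each intensity). Its log2 difference for pancreas minus liver was -3.17, and leaving out liver replicate 1 or 2 made it -2.50 or -3.83. It passed in 0 of the 6 fits with 1 array left out by limma. The lysosomal cholesterol carrier gene npc2.L exceeded its pancreas level 5.23-fold in liver (adjusted p = 0.0214) and its stomach level 4.29-fold (adjusted p = 0.0217), and for npc2.S the folds were 2.08 (adjusted p = 0.0456) and 2.13 (adjusted p = 0.0326).

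Of 10 nuclear receptor genes of lipid metabolism, 2 passed (20.0%, against 14.8% of all genes), and both had their highest mean in liver. The gene hnf4a.S was at 859 and 882 in liver, 235 and 122 in pancreas and 173 and 128 in stomach, 5.85-fold above stomach (adjusted p = 0.0200) and 5.14-fold above pancreas (adjusted p = 0.0313). The retinoid X receptor gene rxrg.L was at 203 and 203 in liver, 17.1 and 20.3 in pancreas and 2.26 and 10.7 in stomach, 41.3-fold above stomach (adjusted p = 0.0172). With 16 added it was 9.92-fold above, and the log2 difference of 5.37 became 4.24 or 6.49 when stomach replicate 1 or 2 was left out. The fatty acid oxidation receptor genes ppara.L and ppara.S did not pass, at 279 and 141, and 864 and 510.5 in liver against at most 149 and 449 on any array of the other organs.

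Of 19 genes of fatty acid uptake and other oxidation steps, 7 differed among the organs (36.8%, against 14.8% of all genes). Of the 7, abcd3.S, decr2.L, slc25a20.S and scp2.L had their highest mean in liver. The acyl-CoA synthetase and transporter gene slc27a2.L was highest in pancreas, at 248 and 283 against 36.5 and 48.8 in liver and 58.1 and 58.5 in stomach, 6.28-fold above liver (adjusted p = 0.00913) and 4.55-fold above stomach (adjusted p = 0.0139). The peroxisomal thiolase and sterol carrier gene scp2.L was at 2012 and 2003 in liver, 1092 and 1053 in stomach and 498 and 570.0 in pancreas. Liver was 3.77-fold above pancreas (adjusted p = 0.0109), stomach 2.01-fold above pancreas (adjusted p = 0.0424) and liver 1.87-fold above stomach (adjusted p = 0.0479, and 0.0551 with the block). That last difference did not pass with quantile normalization either. The gene fabp2.L, for a carrier of fatty acids inside gut cells, was at 3814 and 2151 in stomach, 44.1 and 99.2 in pancreas and 13.9 and 16.2 in liver, and fabp3.S at 1184 and 784, 452 and 406, and 25.2 and 36.3. Both were highest in stomach and lowest in liver on all arrays. The genes fabp2.L and fabp3.S were 191-fold and 31.8-fold lower in liver than in stomach (adjusted p = 0.00509 and 0.00489; 92.9-fold and 21.1-fold with 16 added). Of 7 genes of fat breakdown and related steps, 1 passed (14.3%, against 14.8% of all genes): hormone-sensitive lipase lipe.L was at 5.58 and 5.50 in stomach, 32.7 and 45.9 in pancreas and 45.2 and 42.3 in liver, 7.89-fold above stomach in liver (adjusted p = 0.00602; 2.77-fold with 16 added) and 6.99-fold in pancreas (adjusted p = 0.0106; 2.55-fold with 16 added).

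The replicates differed in the same direction across organs in many genes. In 19 of the 45 genes (42.2%) replicate 1 was above replicate 2 in all 3 organs, as in 23.2% of all genes, and in 4 (8.89%) below it in all 3, as in 20.1% of all genes. Of the 17 mitochondrial and peroxisomal oxidation genes, 11 (64.7%) were above in all 3 organs, as were 3 of the 4 sterol synthesis genes (75.0%), 60.0% of the smooth muscle genes and 50.0% of the liver markers. The share was below that of all genes for fatty acid synthesis, elongation and desaturation (11.1%) and for glycerolipids, sterol esters and lipid droplets (18.2%). It was also below it for erythrocyte genes (16.7%), pancreas markers (8.33%) and stomach markers (0%). The replicates carry different experiment codes in the labels, so isolation and any other step done by replicate cannot be told apart. The ratio of replicate 1 to replicate 2 was 2.51 in pancreas, 2.50 in liver and 3.19 in stomach for acat1.S, and 1.83, 1.75 and 1.83 for acaa1.L. For cpt1al.L it was 0.726, 0.640 and 0.668, the reverse direction in every organ.

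**Figure D4:**
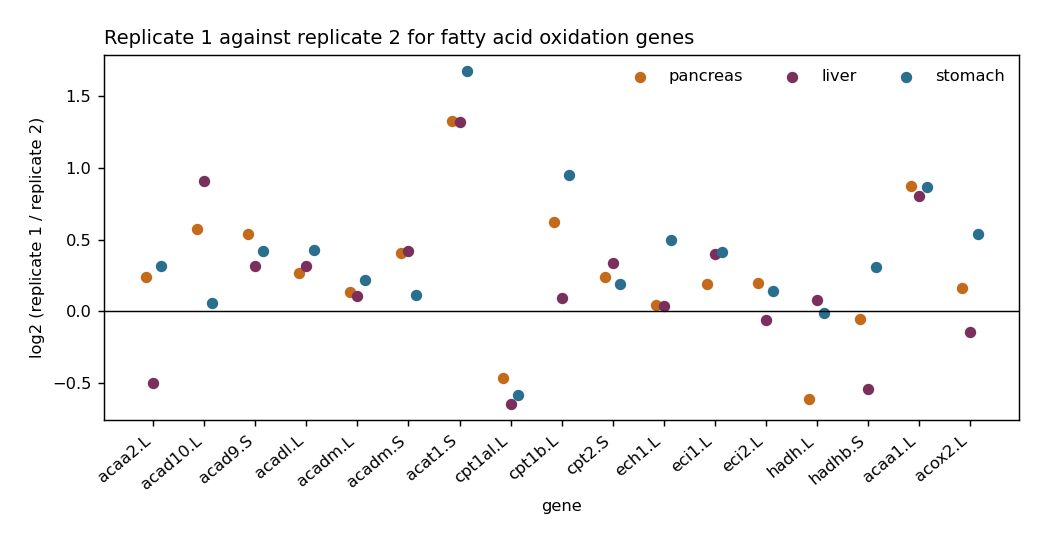
Log2 ratio of replicate 1 to replicate 2 for the 17 fatty acid oxidation genes, with a point for each organ. Points above the line at 0 are higher in replicate 1. All 3 points of acat1.S lie above 1 on this axis and those of cpt1al.L lie below 0.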

How the data were processed

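The deposited values are linear intensities per probe set on 6 Affymetrix arrays, with a median of 100 on each array. RMA is named per the submitters' processing notes; no label records the steps after it. No detection calls were used, so dim values carry an unknown share of background. After 120 control probe sets were left out, 15491 were fitted on the log2 scale with limma 3.58.1 in R 4.3.3 (organ means over all 6 arrays, moderated F and pairwise contrasts, Benjamini-Hochberg adjustment over all of them, adjusted p under 0.05). The brightest probe set stood for a gene. Gene names are those of the platform annotation, and RefSeq held all 45 genes.

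The members, the lists and their roles were chosen with earlier results of these data known. Genes described with all values were the called ones, the lowest F p-values and the brightest of each role, the largest differences and copy pairs. Others were described for completeness after their values were seen.

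Replicate numbers mark a shared isolation in the labels. Over all probe sets, deviations of same-numbered arrays correlated at 0.173 (pancreas and liver), 0.197 (pancreas and stomach) and 0.152 (liver and stomach). Among probe sets with a mean intensity over 100 these correlations were 0.431, 0.421 and 0.400. A fit with the number as a block was therefore run too. Residual degrees of freedom were 3. With 2 arrays per organ, an exact permutation test of a pair cannot go below p = 0.333. The labels state no number of embryos per isolation. The limma p-values rest on the spread between arrays of separate isolations, moderated over all probe sets. In that spread, isolation and any other step done by replicate cannot be told apart. Sequences were not used here.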

Additional observations from a re-analysis of the deposited data

How the results depend on the processing

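Of the 45 genes, 13 differed among the organs, against 14.8% of all genes. A plain ANOVA at an unadjusted p under 0.05 gave 20 of the 45, against 2347 of all 7531 genes. For the other alternatives, only the 45 genes were counted. The count was 4 to 6 when 1 array was left out, 14 with the replicate number as a block or quantile normalization, 19 with 16 added to each intensity, 20 without the dimmest 40% of probe sets, 20 with an intensity trend in eBayes, 20 by a plain ANOVA at an unadjusted p under 0.05 and 0 by that ANOVA after Benjamini-Hochberg adjustment. Higher in pancreas than in liver was 1 gene (2 with the block, 3 with 16 added, 3 without dim probe sets, 4 with the trend, 0 to 0 with 1 array left out). Lower were 6 (9, 11, 12, 13 and 0 to 6). Higher in pancreas than in stomach was 0 (1, 1, 1, 1 and 0 to 0), and lower were 6 (6, 7, 5, 6 and 0 to 2). Higher in liver than in stomach were 5 (6, 8, 8, 9 and 1 to 3), and lower were 7 (7, 8, 8, 8 and 1 to 3). Among the differences that passed, that of agpat1.L between liver and stomach (log2 -1.34) was -1.37 on another probe set of the gene, without passing, and reversed to 0.41 on a further one; none of the others reversed under the alternatives run for them. Differences that did not pass were rerun with the block only. Of the 25 differences that passed, 2 passed in all 6 fits with 1 array left out (elovl7.L and lcat.L, liver against stomach) and 9 in none; these fits have fewer arrays. The block ended the calls of acly.S (pancreas and stomach), ech1.L, elovl7.S and scp2.L (liver and stomach) and, for the F test, of acaa2.L and dgat2.L. It added those of acat1.S, acaa1.L, cpt2.S, plin2.S and agpat3.L given above. Quantile normalization also ended the call of scp2.L between liver and stomach. Dim genes such as fads2.S and idi1.L sit in the lower part of the intensities, at percentiles 17.4 and 20.0 of mean log2 intensity. How far background changes their folds was not tested. The comparison of gene copies was chosen after the values were seen.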
